A study of Homo sapiens with 4 samples.

Results

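Claudins and their tight junction partners were compared between prostate cancer cells labelled PC3-PDEF and PC3-SCR, by the RNA signal of 9 genes on Affymetrix human gene arrays. The genes were picked by name: the claudin genes CLDN1, CLDN3, CLDN4, CLDN7 and CLDN12, the membrane protein genes F11R and MARVELD2, and the cytoplasmic plaque genes TJP1 and CGN. Of these 9, 8 were measured among the 18417 genes of the table, each by a probe set that the platform annotation assigns to that symbol alone. F11R, which encodes junctional adhesion molecule A, has no such probe set in the annotation used here and was not analysed here. PC3 is a line established from a bone metastasis of prostate cancer. PC3-PDEF cells (2 arrays) were engineered to over-express PDEF, the ETS transcription factor encoded by SPDEF, and PC3-SCR cells (2 arrays) carried the empty pBABE vector. The paper names these groups PDEF-PC3 and VC-PC3, and describes the cells as stably transfected. No other treatment is listed for either group, and both were grown in the same medium and serum. The sources used here do not say whether each line was 1 clone or a pool. They do not say either that replicate arrays stand for separate cultures, and p-values then cover only the spread between arrays, which may be technical.

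Tight junctions seal the space between neighbouring epithelial cells near their apical surface. Claudins are membrane proteins with 4 transmembrane segments that polymerise into strands and set which ions and molecules may pass between cells. Junctional adhesion molecules and MARVEL domain proteins such as tricellulin, the product of MARVELD2, accompany them in the membrane. Inside the cell, ZO-1, the product of TJP1, and cingulin, the product of CGN, link the strands to the actin cytoskeleton. In carcinomas that take on mesenchymal traits, claudin genes are often repressed, and the transcription factor Snail is known in mouse cells to bind E-box sequences of claudin promoters.

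The labels were checked first. SPDEF signals were 6.85 and 6.73 in PC3-PDEF arrays and 5.99 and 6.06 in PC3-SCR arrays, all on the log2 scale. CTNNA1 and STAT3, both lost by homozygous deletion in PC3 as this line is known, reached 9.05 to 9.86 in PC3-PDEF arrays, against 4.07 to 4.77 in PC3-SCR arrays. The PC3-PDEF arrays therefore go against the PC3 label at these genes, and PDEF and whatever else separates the cells of the groups cannot be told apart in any comparison here. Of 4 neural markers measured, NEFL, NEFM and INA were higher, and the summed signal of the list was 11.13 and 11.29 in PC3-PDEF arrays against 7.60 and 7.59 in PC3-SCR arrays, as log2 of the sum. Of 5 embryonic kidney markers, EYA1 was higher and PAX8 lower, with summed signals of 8.82 and 8.70 in PC3-PDEF and 8.50 and 8.59 in PC3-SCR. Fibroblast markers were lower for 3 of 6 genes (summed signals 8.12 and 7.99 in PC3-PDEF, 9.15 and 8.94 in PC3-SCR). Endothelial markers were lower for 3 of 5 genes (6.56 and 6.54 in PC3-PDEF, 7.66 and 7.85 in PC3-SCR). Over all genes, 26.7% were higher and 24.0% were lower. In the fibroblast list and in the endothelial list, 2 of the 3 lower genes were not above background in any array. None of the 4 leukocyte markers passed the test (5.73 and 5.70 in PC3-PDEF, 5.84 and 5.93 in PC3-SCR), and neither did the luminal prostate markers KLK2 and KLK3 (5.48 and 5.43 in PC3-PDEF, 5.60 and 5.73 in PC3-SCR), which were not above background in any array. Among 5 epithelial markers, KRT8, KRT19 and EPCAM were lower and KRT18 and CDH1 did not pass the test, with summed signals of 10.29 and 10.38 in PC3-PDEF and 11.03 and 10.96 in PC3-SCR. The part of these differences in the tight junction results was not tested. As a gauge of background, 341 olfactory receptor genes were taken, and whether any of them is transcribed in these cells was not tested. The highest of them lay at 5.65 and 5.75 in PC3-PDEF and at 5.94 and 6.01 in PC3-SCR arrays. That level rests on 1 gene per array. The 95th percentile of these genes was 4.49 and 4.42 in PC3-PDEF and 4.58 and 4.54 in PC3-SCR arrays.

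Most claudin and tight junction members were lower in PC3-PDEF than in PC3-SCR arrays. CLDN1, CLDN4, CLDN7, MARVELD2 and TJP1 fell, CGN rose, and CLDN3 and CLDN12 stayed short of the threshold, an adjusted p under 0.05 (limma, Benjamini-Hochberg over all genes). Thus 5 of 8 members fell, where 24.0% of all genes did, and 1 of 8 rose, where 26.7% of all genes did. Of the 5 that fell, CLDN1 and MARVELD2 were under the highest olfactory receptor gene in every array. Genes at that level were more often lower: of 7179 over the whole table, 530 were called higher and 1234 lower. The members called in either direction were 6 of 8, beside 50.7% of all genes. With a change of at least 2-fold, 3 of 8 members fell, beside 6.07% of all genes, and 1 rose, beside 8.67% of all genes. The 8 members had a median log2 fold change of -0.82, against -0.05 over all genes. For each of the 8 members both PC3-PDEF arrays lay on one side of both PC3-SCR arrays, as they did for 74.7% of all genes. Without PC3-SCR replicate 2, CLDN7, MARVELD2 and TJP1 were the 3 members that fell. In RNA from whole cultures, fewer cells expressing a gene and less RNA per cell cannot be told apart.

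**Figure D1:**
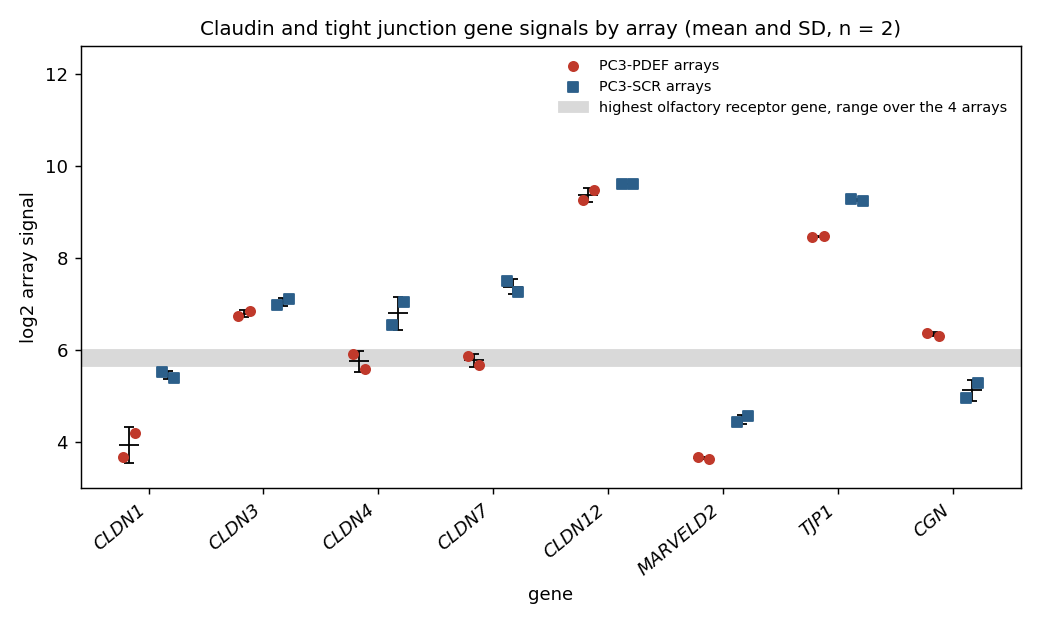
Log2 array signal (vertical axis) of the 8 measured genes (horizontal axis) in PC3-PDEF (circles) and PC3-SCR arrays (squares), with the group mean (dash) and SD (bars, n = 2), and a grey band for the highest olfactory receptor gene (5.65 to 6.01 over the arrays). CGN is the gene with both PC3-PDEF arrays above both PC3-SCR arrays, and CLDN1 and MARVELD2 lie under the band in every array.

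CLDN7 had the largest fall among the members. Its product is a claudin of simple epithelia that also lies along the lateral membrane, where it binds EpCAM. CLDN7 signals were 5.87 and 5.68 in PC3-PDEF arrays and 7.50 and 7.26 in PC3-SCR arrays. The PC3-SCR arrays were well above background, while 1 PC3-PDEF array was above the highest olfactory receptor gene and the other was not. CLDN7 fell by 1.60 (log2 scale, as for every fall and rise here, with standard error 0.12 and limma adjusted p = 8.16e-05), a size that is not exact so close to background in PC3-PDEF.

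CLDN4, a claudin that seals against sodium in many epithelia and a receptor of the Clostridium perfringens enterotoxin, had signals of 5.92 and 5.59 in PC3-PDEF arrays, of which the second was not above the highest olfactory receptor gene. Its PC3-SCR signals were 6.54 and 7.05, the widest spread within a group of PC3-SCR arrays among the members. CLDN4 fell by 1.04 (standard error 0.19, adjusted p = 0.00426), again with an inexact size. The 2 arrays of each group stood apart from those of the other. The call held without PC3-SCR replicate 1 (adjusted p = 0.0345), while the adjusted p was 0.0813 without PC3-PDEF replicate 1, 0.137 without PC3-PDEF replicate 2 and 0.0758 without PC3-SCR replicate 2.

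CLDN3, whose product is also a receptor of that enterotoxin, differed little. Its signals were 6.74 and 6.84 in PC3-PDEF arrays and 6.98 and 7.10 in PC3-SCR arrays, all above background. The log2 fold change was -0.25 (unadjusted 95% interval -0.47 to -0.0298, adjusted p = 0.0604). This gene passed the threshold after quantile normalization (adjusted p = 0.018), after median centring (adjusted p = 0.0248) and among genes above the median level (adjusted p = 0.0214). CLDN3 and CLDN4 lie next to each other on chromosome 7 in the order of measured protein-coding genes, and the difference between their changes was not tested.

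CLDN1, whose product is needed for the water barrier of the skin, was dim in all arrays. Signals were 3.67 and 4.21 in PC3-PDEF and 5.52 and 5.39 in PC3-SCR arrays. No array exceeded the highest olfactory receptor gene. The PC3-SCR signals were above the 95th percentile of those genes (4.58 and 4.54 in PC3-SCR), and the PC3-PDEF signals were under it (4.49 and 4.42 in PC3-PDEF). The log2 signal of CLDN1 fell by 1.52 (standard error 0.18, adjusted p = 0.000576), a difference whose size is not exact so close to background. The adjusted p was 0.0582 without PC3-SCR replicate 1 and 0.0504 without PC3-SCR replicate 2.

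CLDN12 encodes a claudin that lacks the usual carboxy-terminal motif through which other family members bind ZO-1. It was well above background in every array, at 9.26 and 9.47 in PC3-PDEF and 9.61 in both PC3-SCR arrays. Its log2 fold change was -0.24 (unadjusted 95% interval -0.485 to -0.00465, adjusted p = 0.0833). The adjusted p was 0.0356 after median centring, 0.0338 among genes above the median level and 0.0143 when the prior variance followed the mean signal.

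TJP1 had the smallest standard error of the 8 members. ZO-1, its product, is the scaffold on which claudins assemble into strands. TJP1 signals were 8.46 and 8.47 in PC3-PDEF and 9.28 and 9.24 in PC3-SCR arrays. TJP1 fell by 0.80 (standard error 0.0801, adjusted p = 0.000309), which is 1.74-fold lower, and was above background throughout. MARVELD2 encodes tricellulin, which seals the corners where 3 cells meet. Its signals were 3.67 and 3.64 in PC3-PDEF and 4.43 and 4.57 in PC3-SCR arrays, under the highest olfactory receptor gene everywhere. Its log2 signal fell by 0.84 (standard error 0.0890, adjusted p = 0.000373), again with an inexact size. MARVELD2 has 2 probe sets with the same values in all 4 arrays, which count as 1 measurement.

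CGN was the member that rose. Cingulin binds ZO-1, actin filaments and a RhoA activator at the junction. CGN signals were 6.38 and 6.31 in PC3-PDEF arrays and 4.96 and 5.29 in PC3-SCR arrays. Both PC3-PDEF arrays were above the highest olfactory receptor gene and both PC3-SCR arrays were under it. CGN rose by 1.22 (standard error 0.12, adjusted p = 0.000322). With the PC3-SCR arrays set at that background level, CGN was at least 1.29-fold higher in PC3-PDEF. CGN thus changed in the direction opposite to TJP1, which encodes its binding partner.

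**Figure D2:**
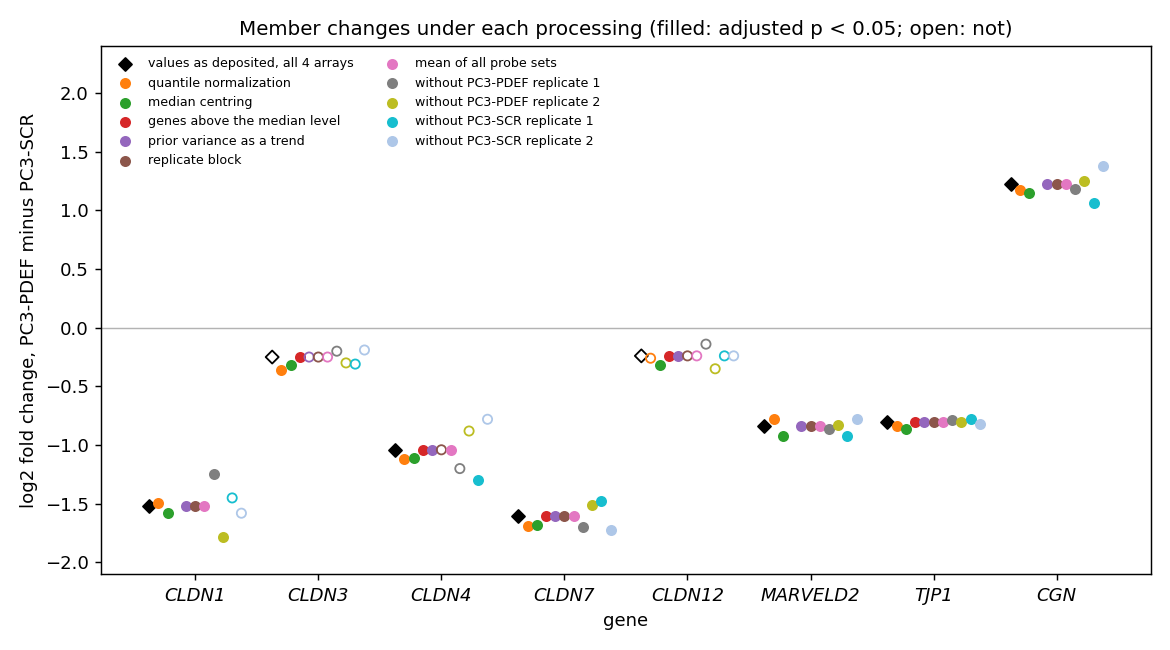
Log2 fold change, PC3-PDEF minus PC3-SCR (vertical axis), of each member (horizontal axis) with the values as deposited (diamond) and under 10 other processings (circles, coloured by processing), filled where the adjusted p was under 0.05. CLDN7, TJP1, MARVELD2 and CGN are filled in each processing that held them, while CLDN3 and CLDN12 are filled in 3 each, and CLDN1, MARVELD2 and CGN have no circle for the genes above the median level.

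The promoters of CLDN7, CGN and MARVELD2 are printed because these genes, like TJP1, passed the test under every processing that held them, and because they differ in the motifs found. Each is the 250 bases before a transcription start, from RefSeq (GRCh38.p14), with capitals where a motif was found on either strand. The motifs searched were the E-box CAGGTG bound by Snail and ZEB factors, CCGGAT with the GGAT core that PDEF prefers, the Sp1 box GGGCGG and the Grainyhead site AACCGGTT. The CLDN7 promoter lies at chr17:7262479-7262728, minus strand, one of 2 starts listed. The other CLDN7 start, which is not printed, held none of these motifs. The CGN promoter lies at chr1:151511137-151511386, plus strand, and the MARVELD2 promoter at chr5:69414866-69415115, plus strand.
CLDN7: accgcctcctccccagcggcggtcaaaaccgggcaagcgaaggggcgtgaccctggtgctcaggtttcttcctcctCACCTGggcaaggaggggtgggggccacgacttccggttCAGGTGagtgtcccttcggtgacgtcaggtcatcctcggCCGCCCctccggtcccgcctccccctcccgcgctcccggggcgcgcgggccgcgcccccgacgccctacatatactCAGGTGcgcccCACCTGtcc
CGN: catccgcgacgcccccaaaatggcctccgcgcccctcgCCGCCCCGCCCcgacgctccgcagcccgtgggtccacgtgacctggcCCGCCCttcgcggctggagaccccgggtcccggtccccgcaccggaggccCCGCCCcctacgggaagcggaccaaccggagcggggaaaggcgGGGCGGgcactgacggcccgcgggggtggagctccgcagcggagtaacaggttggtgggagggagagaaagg
MARVELD2: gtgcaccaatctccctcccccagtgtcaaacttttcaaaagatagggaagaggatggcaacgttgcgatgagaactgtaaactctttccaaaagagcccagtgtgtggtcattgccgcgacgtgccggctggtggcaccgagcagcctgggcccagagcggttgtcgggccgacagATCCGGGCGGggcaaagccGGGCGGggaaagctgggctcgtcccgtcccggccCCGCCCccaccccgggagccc
The capitals in CLDN7 are 4 E-boxes, whose first bases lie 174, 135, 20 and 9 bases before the start, and 1 Sp1 box. Those in CGN are 5 Sp1 boxes, of which the first pair overlap. Those in MARVELD2 are 1 PDEF core, 74 bases before the start, which overlaps the first of 3 Sp1 boxes. Over the 8 members with a promoter in the table (12 starts), an E-box was present at a start of CLDN7 and TJP1, where 17.5% of the 35116 promoters of the table hold one. The PDEF core was present in MARVELD2 and CLDN12, against 5.85% of all promoters. Sp1 boxes were present at a start of 7 members, against 42.6% of all promoters, and the Grainyhead site was present in 0 of 8, against 0.117%. A member was counted if any of its starts held the motif, while the shares are of single promoters. CLDN7 and TJP1 have several starts each, so the counts and the shares are not on equal terms. All of these matches describe letters and not bound sites.

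The nearest measured protein-coding genes on both sides of the 9 members were 18 genes, CLDN3 and CLDN4 among them. Of these, 4 were higher and 4 lower, beside 26.7% and 24.0% of all genes, and 10 did not pass the test. CLDN4 was the only neighbour that changed at least 2-fold. Next to CLDN7, ELP5, which encodes an Elongator subunit, had signals of 9.04 and 9.03 in PC3-PDEF and 8.20 and 8.24 in PC3-SCR arrays, and rose by 0.82 (adjusted p = 0.000277). ELP5 was named after its values were seen.

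Other proteins of the junction were described through 60 further genes, of which 53 were measured. Among the 53 genes, 13 rose and 17 fell, 23 did not pass, and the median log2 fold change was -0.12. The shares of genes called over the whole table were 26.7% higher and 24.0% lower. Leaving out any 1 of the 4 arrays left 10 or 11 genes lower, and without PC3-PDEF replicate 2, 8 were higher.

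Of the further transmembrane proteins other than claudins, 6 of 10 measured genes rose and 0 fell, beside 26.7% and 24.0% of all genes. The member MARVELD2, also of this kind, fell and is not among these 10. Of those that rose, 2 were under the highest olfactory receptor gene in every array. CXADR, the coxsackievirus and adenovirus receptor, which is an adhesion protein of the junction, had the largest change. Its signals were 8.65 and 8.82 in PC3-PDEF and 5.05 and 4.61 in PC3-SCR arrays, the PC3-SCR arrays being under the highest olfactory receptor gene. It rose by 3.90 (standard error 0.16, adjusted p = 9e-06), and with PC3-SCR set at that background it was at least 6.77-fold higher. JAM3, a junctional adhesion molecule gene of the family of F11R, had signals of 8.97 and 8.91 in PC3-PDEF and 5.71 and 5.75 in PC3-SCR arrays. It rose by 3.21 (standard error 0.0819, adjusted p = 3.03e-06), and was at least 7.81-fold higher on the same terms. JAM2 of the same family rose by 1.20 but stayed under the highest olfactory receptor gene, at 5.60 and 5.65 in PC3-PDEF and 4.58 and 4.26 in PC3-SCR. LSR, named after its values were seen, encodes angulin-1, which recruits tricellulin to cell corners. LSR rose by 0.58 (adjusted p = 0.00174), while MARVELD2 fell.

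The other claudins were mostly at background, and 12 of 17 were under the highest olfactory receptor gene in every array. Among the 17, 0 rose, where 26.7% of all genes did, and 4 fell, where 24.0% of all genes did. CLDN11, a claudin of myelin and of Sertoli cell junctions, had signals of 6.96 and 6.97 in PC3-PDEF and 11.15 and 11.04 in PC3-SCR arrays. Its arrays were above background in both groups, and the groups were far apart. CLDN11 fell by 4.13 (standard error 0.0852, adjusted p = 2.5e-06), a larger change than that of any member. The others that fell were CLDN14, CLDN22 and CLDN23, with log2 fold changes of -0.74, -0.37 and -0.36, and were named after their values were seen. CLDN14 and CLDN22 were under the highest olfactory receptor gene in every array, and CLDN22 was under the median of those genes too. Of all 7179 genes under that highest level in every array, 530 were called higher and 1234 lower. Without 1 array, the adjusted p was 0.106 to 0.334 for CLDN14 and 0.0602 to 0.242 for CLDN23, whichever array was left out. For CLDN22 it was 0.128 without PC3-PDEF replicate 1, 0.127 without PC3-PDEF replicate 2 and 0.0749 without PC3-SCR replicate 1.

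**Figure D3:**
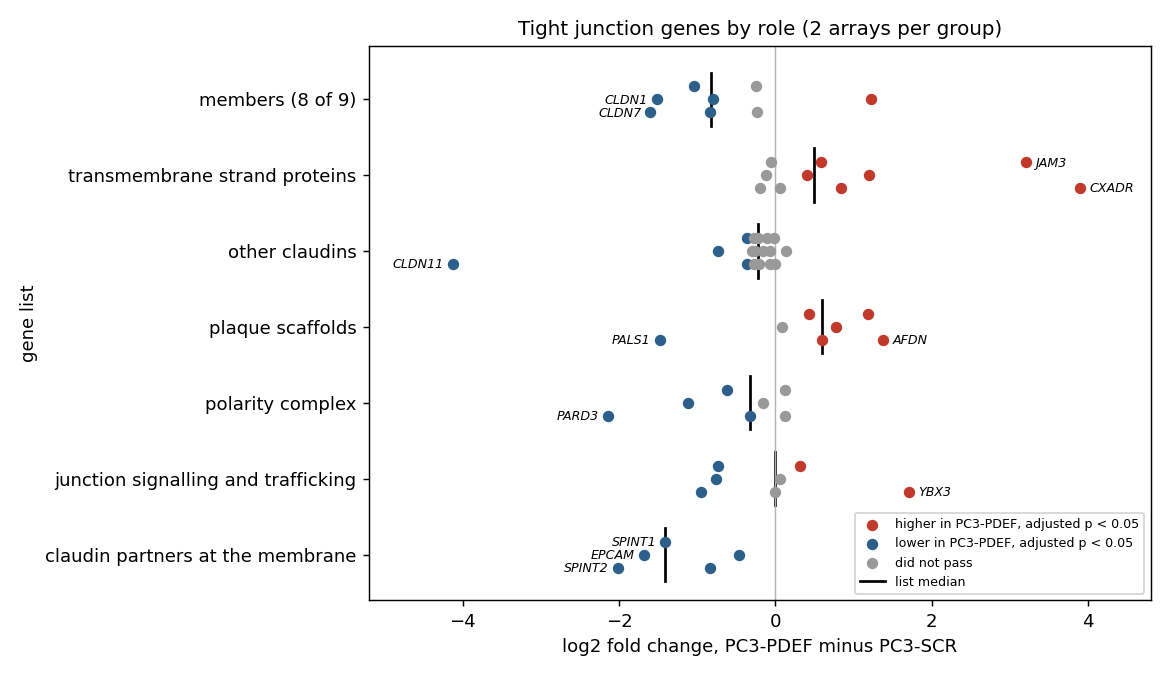
Log2 fold change, PC3-PDEF minus PC3-SCR (horizontal axis), of the 8 members and 53 other tight junction genes by list (vertical axis), 1 point per gene, red where higher and blue where lower at an adjusted p under 0.05, grey otherwise, with a line at each list's median. The further transmembrane proteins, neither claudins nor members, lie between -0.20 and 3.90, where CXADR is, and CLDN11 lies at -4.13.

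Among the plaque scaffolds, 5 of 7 measured genes rose and 1 fell, beside 26.7% and 24.0% of all genes. PATJ and PALS1 encode partners in the Crumbs polarity complex and changed in opposite directions. PATJ had signals of 8.27 in both PC3-PDEF arrays and of 7.12 and 7.04 in PC3-SCR arrays, and rose by 1.19 (adjusted p = 6.55e-05). PALS1 had 8.42 and 8.62 in PC3-PDEF and 9.96 and 10.03 in PC3-SCR arrays, and fell by 1.48 (adjusted p = 5.82e-05). AFDN, which encodes afadin, a link between nectins and actin, rose by 1.38 (adjusted p = 4.77e-05), with 8.42 and 8.54 in PC3-PDEF and 7.13 and 7.06 in PC3-SCR. CGNL1, the paralog of CGN, named after its values were seen, rose by 0.60 (adjusted p = 0.00232) at signals under the highest olfactory receptor gene. The adjusted p of CGNL1 was 0.0559 without PC3-PDEF replicate 2 and 0.053 without PC3-SCR replicate 1.

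Genes of the polarity complex that holds PARD3 were lower where they changed. PATJ and PALS1, of the Crumbs complex, were counted among the plaque scaffolds and not here. Of 7 measured, 4 fell and 0 rose, beside 24.0% and 26.7% of all genes. Of those that fell, 1 was under the highest olfactory receptor gene in both PC3-SCR arrays. PARD3, the scaffold that recruits atypical protein kinase C to the forming junction, had signals of 7.68 and 7.83 in PC3-PDEF and 9.97 and 9.82 in PC3-SCR arrays. It fell by 2.14 (standard error 0.0995, adjusted p = 1.56e-05). PRKCZ, the gene of an atypical protein kinase C, had 7.35 and 7.38 in PC3-PDEF and 8.55 and 8.42 in PC3-SCR, and fell by 1.12 (adjusted p = 0.000107).

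Signalling and trafficking genes of the junction moved both ways, 2 of 7 up and 3 of 7 down, beside 26.7% and 24.0% of all genes. YBX3, whose product ZONAB is a transcription factor held at junctions by ZO-1, had signals of 10.98 and 11.05 in PC3-PDEF and 9.29 and 9.32 in PC3-SCR arrays. It rose by 1.71 (standard error 0.0821, adjusted p = 1.7e-05). ARHGEF18, which encodes a RhoA activator, fell by 0.95, RAB13, a GTPase gene of junction trafficking, fell by 0.76, and the kinase gene WNK4 fell by 0.74. These 3 were named after their values were seen, and the adjusted p of WNK4 was 0.0518 to 0.135 with any 1 array left out.

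All 5 measured membrane partners of claudins were lower in PC3-PDEF, where 24.0% of all genes were. EPCAM, which encodes the adhesion protein that binds claudin-7, had signals of 5.65 and 6.53 in PC3-PDEF and 7.81 and 7.74 in PC3-SCR arrays. The PC3-PDEF arrays differed from each other more than those of any member, and 1 of them was at background. EPCAM fell by 1.68 (standard error 0.26, adjusted p = 0.00212), with an adjusted p of 0.101 without PC3-SCR replicate 1 and 0.0946 without PC3-SCR replicate 2. SPINT1 and SPINT2 encode inhibitors of matriptase, a protease known to cleave EpCAM and thereby destabilise claudin-7. SPINT2 had 7.11 and 7.20 in PC3-PDEF and 9.27 and 9.09 in PC3-SCR arrays, and fell by 2.02 (adjusted p = 1.72e-05). SPINT1 had 5.74 and 5.98 in PC3-PDEF and 7.42 and 7.12 in PC3-SCR, and fell by 1.41 (adjusted p = 0.000247). The matriptase gene ST14 and PRSS8, the gene of prostasin, fell by 0.84 and 0.46 at signals under the highest olfactory receptor gene. Both were named after their values were seen, and the adjusted p of PRSS8 was 0.0578 to 0.152 with any 1 array left out.

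**Figure D4:**
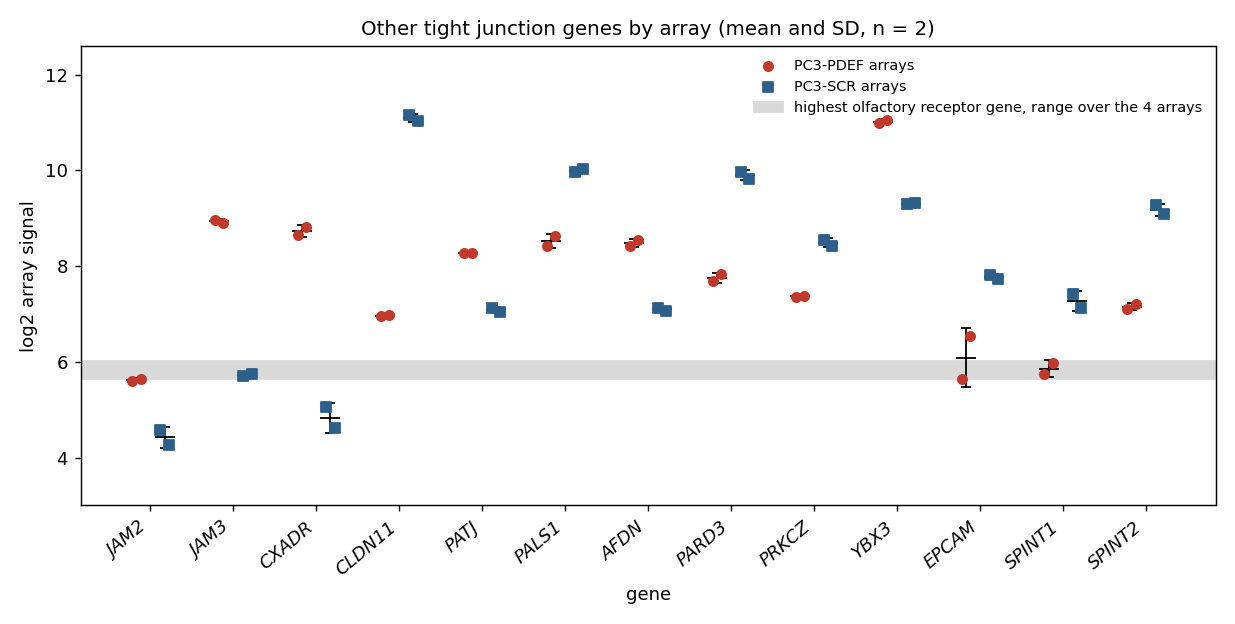
Log2 array signal (vertical axis) of the 13 other tight junction genes called with at least a 2-fold change (horizontal axis) in PC3-PDEF (circles) and PC3-SCR arrays (squares), with the group mean (dash), SD (bars, n = 2) and a grey band for the highest olfactory receptor gene. CXADR and JAM3 lie above the band in PC3-PDEF and not above 5.75 in PC3-SCR, and CLDN11 lies at 6.96 and 6.97 in PC3-PDEF against 11.15 and 11.04 in PC3-SCR.

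Transcription factors known to act on claudin genes or on epithelial genes more widely changed in both directions. Of 15 measured, 3 rose and 8 fell, beside 26.7% and 24.0% of all genes, and the other 4 missed the threshold. All 11 that passed are named here, after their values were seen. Of the factors known to repress epithelial genes through E-boxes, all that passed fell except ZEB2. SNAI2 signals were 9.26 and 9.30 in PC3-PDEF and 10.57 and 10.46 in PC3-SCR arrays, and SNAI2 fell by 1.24 (adjusted p = 6.66e-05). TWIST1 fell by 1.14 (adjusted p = 0.000178) and ZEB1 fell by 0.46 (adjusted p = 0.00583), whereas ZEB2 rose by 0.76 (adjusted p = 0.00251). ZEB2 has 2 probe sets and missed the threshold with their mean (log2 fold change 0.26, adjusted p = 0.0677). Its rise was thus not shared by both probe sets.

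Factors known to maintain epithelial genes were on both sides. KLF5 signals were 7.41 and 7.37 in PC3-PDEF and 8.35 and 8.34 in PC3-SCR arrays, and KLF5 fell by 0.96 (adjusted p = 0.000143). EHF, GRHL2, ELF3 and OVOL1 had log2 fold changes of -1.02, -0.56, -0.54 and -0.35, and all of their signals were under the highest olfactory receptor gene. KLF4 and the intestinal factor CDX2 rose by 0.90 and 0.80. KLF4 was under the highest olfactory receptor gene in both PC3-SCR arrays (5.36 and 5.62). With PC3-SCR set at that background, KLF4 was at least 1.33-fold higher in PC3-PDEF. SNAI2, TWIST1 and KLF5 passed the test without any 1 of the 4 arrays. Each of the others missed the threshold without at least 1 array. The adjusted p was 0.0554 without PC3-PDEF replicate 1, 0.0707 without PC3-SCR replicate 1 and 0.0682 without PC3-SCR replicate 2 for ZEB1. For ZEB2 it was 0.0813 without PC3-PDEF replicate 1 and 0.0972 without PC3-PDEF replicate 2. KLF4 had 0.0636 without PC3-PDEF replicate 2, and CDX2 had 0.0654 without PC3-SCR replicate 1 and 0.068 without PC3-SCR replicate 2. The adjusted p of EHF was 0.127 and that of ELF3 0.0558 without PC3-PDEF replicate 1, and 0.142 and 0.0665 without PC3-PDEF replicate 2. GRHL2 had 0.0506 without PC3-PDEF replicate 2, 0.0662 without PC3-SCR replicate 1 and 0.054 without PC3-SCR replicate 2, and OVOL1 had 0.0747 to 0.186 with any 1 array left out.

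The genes whose 4 array values lay closest to those of CGN, after each gene was centred on its mean, were MDM2, ELOVL2 and DHX9, at Euclidean distances of 0.064, 0.065 and 0.073. Closest to CLDN7 were SMOX, ADAM12 and ULBP1, at 0.042, 0.070 and 0.073. With 2 groups of 2 arrays, such a likeness describes little more than an equal fold change.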

How the data were processed

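The authors deposited log2 signals of 33297 Affymetrix HuGene-1.0-st-v1 probe sets, made with Transcriptome Analysis Console per the labels. The version of that program and how it corrected and normalized the signals were not given in the sources used here, and the log base was inferred from the range of values. Array medians were 5.41 to 5.46, so no further scaling was applied, and any shift common to all genes would have been removed by the authors' scaling. Probe sets with 1 symbol in the platform annotation were kept (19460), those with several (1754, OCLN among them) or none (12083) were not used, and symbols were updated to GRCh38.p14. The probe set with the highest mean stood for each of 18417 genes, with no filter on low signals. PC3-PDEF and PC3-SCR were compared with limma 3.58.1 in R 4.3.3 (two-sided, 2 residual and 4.23 prior degrees of freedom). The p-values were adjusted by Benjamini-Hochberg over all genes, and genes were called at an adjusted p under 0.05. The fit was also run on simulated arrays, to check the direction and size of the changes it returns, which says nothing of the calls made here. An exact permutation test of 2 against 2 arrays cannot give a p below 0.333. Standard deviations are over 2 arrays, whose number limits the precision. Members and lists were chosen with earlier results of these data known. Besides the members, the naming rule took genes of each tight junction list called with at least a 2-fold change (up to 3 in each direction), the label checks, neighbours called with at least a 2-fold change and the genes nearest to CGN and CLDN7 in pattern. The transcription factors and the cell type markers lay outside the rule. The 11 factors named, and 11 other genes, were named after their values were seen. A fold given as "at least" sets the arrays of the group under background at the highest olfactory receptor gene. Alternatives were quantile normalization, median centring, a filter on level, a variance trend, the replicate number as a block, the mean of a gene's probe sets, and leaving out each array.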

Additional observations from a re-analysis of the deposited data

How the results depend on the processing

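None of the 30 genes taken by the naming rule reversed direction under the alternatives run. Neither did any of 22 tight junction, neighbour and transcription factor genes named after their values were seen. Most alternatives could not have reversed them. The filter on level, the variance trend and the replicate block keep the same fold change. Leaving out 1 array cannot reverse a gene whose groups do not overlap, as held for all of these genes. Of the cell type markers named, CDH1 and KLK2, which did not pass the test, changed sign under some alternatives. KRT18 passed the threshold under quantile normalization (adjusted p = 0.0492), median centring (0.0387), the filter on level (0.0369) and a variance trend (0.0198), and KLK3 under median centring (0.028) and the replicate block (0.0363). Of the 22 named after their values were seen, 14 missed the threshold without at least 1 array, and ZEB2 (mean of probe sets), OVOL1 (quantile normalization, adjusted p = 0.0537) and WNK4 (replicate block, adjusted p = 0.0669) under another processing. The mean of all probe sets and the other scalings left 1 member higher and 5 to 7 lower. Among genes above the median level 0 members were higher, since CGN is not in that set, and 11 other tight junction genes were lower. Leaving out 1 array at a time left 1 member higher and 3 to 4 lower, 8 to 12 other tight junction genes higher and 10 to 11 lower, and 3010 to 3635 genes higher and 2326 to 2856 lower of all, against 4918 and 4419 with all arrays. Without PC3-SCR replicate 2, 3 members were lower. A fit with 1 array in a group assumes that this array varies as the other group's do. The replicate numbers shared no known culture or day, and same-numbered arrays did not deviate together (correlation 0.0221 across genes). With the replicate number as a block, 1 member was higher and 4 lower, with CLDN4 at an adjusted p of 0.0564, and of the other tight junction genes 11 were higher and 14 lower. Signal over background limits CLDN1, MARVELD2, JAM2 and most other claudins.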
